A study of Mus musculus with 28 samples.

Results

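Atoh1, Barhl1, Nhlh1, Nhlh2, Neurod1, Pax6, Meis1 and Eomes, 8 transcription factors of the lineage that gives rise to cerebellar granule neurons, were followed across mouse brain tumours and normal brain. A probe set, the group of short probes for 1 transcript on the array, was taken where the platform annotation paired it with exactly 1 of these 8 symbols. This gave 17 of the 45101 probe sets of the array and 8 of 18193 genes. The probe set with the highest mean intensity stood for each gene, and the others served as a check. Expression was measured on 28 one-colour arrays, comprising 10 medulloblastomas (tumours of the cerebellum), 6 gliomas (tumours with features of glial cells) and 12 normal brain tissues. Apart from 1 wild-type normal brain, all samples were p53-/- with hGFAP-Cre, that is, Cre recombinase under a promoter active in neural progenitors and astroglia, so loss of p53 and the transgene were shared by tumours and nearly all controls. The variable was Rictor, which mTORC2, a growth-signalling kinase complex, needs for its activity. The medulloblastomas were 3 with p53 loss only (A3, A5 and A6), 2 Rictor-heterozygous (B4 and B6) and 5 Rictor-null (C1, C2, C4, C5 and C6). The gliomas were 1 with p53 loss only (A4), 4 Rictor-heterozygous (B1, B2, B3 and B7) and 1 Rictor-null (C3). The normal brains were 5 Rictor-heterozygous (B1, B2, B4, B6 and B7), 5 Rictor-null (C1, C2, C3, C5 and C6), 1 with p53 loss only (A6) and the wild type (Z2). Arrays are named by the code that ends their label, and equal codes in different tissues are different samples. The labels give no age and no brain region, and they leave open whether each array of a group is a different animal. All p-values therefore refer to the spread among these arrays, part of which may be technical.

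Granule neuron precursors arise in the rhombic lip, where the basic helix-loop-helix factor Atoh1 specifies them, and they divide in the outer layer of the young cerebellum under Sonic hedgehog (SHH) before they leave the cycle and migrate inward. Barhl1 is a homeobox factor of the same precursors, Nhlh1 and Nhlh2 are helix-loop-helix factors of newly born neurons, and Neurod1 is needed as precursors differentiate. Pax6 and its homeobox partner Meis1 are present from dividing precursor to mature granule neuron, while Eomes marks unipolar brush cells, another product of the rhombic lip, and also intermediate progenitors and some projection neurons of the forebrain. Basic helix-loop-helix factors pair with E proteins and bind the E-box, written CANNTG.

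The sequences before the starts of the helix-loop-helix members and of Barhl1 are shown because the E-box is the site that the helix-loop-helix factors bind. The 250 bases before the start site were taken from RefSeq on assembly GRCm38.p6, in which all 8 genes were found with 10 start sites in all. Each is written 5′ to 3′ on the strand of its gene, with every CANNTG in capitals.
Atoh1, chr6:64728875-64729124, plus strand: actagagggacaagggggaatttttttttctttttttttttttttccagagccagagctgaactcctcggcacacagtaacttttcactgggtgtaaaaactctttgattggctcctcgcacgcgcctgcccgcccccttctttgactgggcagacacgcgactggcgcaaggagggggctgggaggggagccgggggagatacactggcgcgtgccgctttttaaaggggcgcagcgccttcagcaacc
Barhl1, chr2:28916669-28916918, minus strand: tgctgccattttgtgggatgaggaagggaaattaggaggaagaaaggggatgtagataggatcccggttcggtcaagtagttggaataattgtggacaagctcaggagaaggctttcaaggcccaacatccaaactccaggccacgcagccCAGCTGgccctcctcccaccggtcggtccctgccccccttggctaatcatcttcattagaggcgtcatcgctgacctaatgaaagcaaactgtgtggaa
Nhlh1, chr1:172057597-172057846, minus strand: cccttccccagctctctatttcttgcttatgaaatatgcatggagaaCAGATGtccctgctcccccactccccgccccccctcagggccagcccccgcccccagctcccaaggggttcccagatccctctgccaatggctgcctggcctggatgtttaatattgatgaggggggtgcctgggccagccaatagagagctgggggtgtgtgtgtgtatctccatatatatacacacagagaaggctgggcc
Nhlh2, chr3:102009895-102010144, plus strand: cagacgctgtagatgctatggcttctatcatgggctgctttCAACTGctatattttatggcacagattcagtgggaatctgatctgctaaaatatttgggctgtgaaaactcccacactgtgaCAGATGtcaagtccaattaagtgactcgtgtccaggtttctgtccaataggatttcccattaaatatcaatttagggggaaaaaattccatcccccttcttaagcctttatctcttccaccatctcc
Neurod1, chr2:79456637-79456886, minus strand: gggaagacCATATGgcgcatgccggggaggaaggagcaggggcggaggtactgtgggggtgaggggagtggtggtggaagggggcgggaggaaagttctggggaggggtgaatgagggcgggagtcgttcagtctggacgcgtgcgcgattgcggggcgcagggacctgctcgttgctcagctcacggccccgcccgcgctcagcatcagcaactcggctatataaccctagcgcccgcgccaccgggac

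The letters CAGCTG stood 99 to 94 bases before this Barhl1 start and 15 to 10 bases before the other one. The form CAGATG stood 203 to 198 bases before the start of Nhlh1 and 127 to 122 bases before that of Nhlh2, which also held CAACTG at 209 to 204. Neurod1 held CATATG at 242 to 237, and the Atoh1 window held no CANNTG. Among the rest, a Pax6 window held CAAATG at 20 to 15 and the Meis1 window held CATGTG at 181 to 176. CAGCTG or CAGATG, the latter read as CATCTG on the other strand, was found in 3 of the 8 genes, or 4 of their 10 windows, against 25.5% of 32851 RefSeq windows of the same length. Any CANNTG, which reads alike on both strands and includes those forms, was in 6 of the 8 genes and in 66.2% of all windows, so its presence did not set these genes apart. The first count is by gene, with 2 windows each for Barhl1 and Pax6, and the second is by window. The GLI motif GACCACCCA (TGGGTGGTC on the other strand) was in 0.225% of all windows and in none of the 10.

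Some arrays held transcripts that their labels do not name, and their values are given here before the results. The intensity of Gabra6, a GABA receptor subunit that marks mature granule neurons, was 4918.3 in normal brain Z2, 4153.4 in C5 and 1740.4 in B2, and 1.1 to 116.3 in the other 9 normal brains. A list of 10 mature granule neuron genes, of which 9 were on the array under 1 symbol, summed to 14625.2, 11966.6 and 4571.1 in these 3 and to 720.9 to 1186.9 in the other 9. Forebrain neuron genes (6 of 8 on the array) ran the other way, summing to 183.0, 318.1 and 1015.4 in these 3 and to 1237.5 to 3248.0 elsewhere. Medulloblastomas B6 and C6 (Gabra6 1637.5 and 1324.3) and gliomas B7, B2 and A4 (1014.0, 674.9 and 203.5) were also rich in Gabra6, against at most 187.2 and 30.2 in the other tumours of each kind. No gene of either list was at 0 on any array. Normal brain C2 had 274.8 for the proliferation gene Mki67, against 2.8 to 53.7 in the other normal brains. The ratio of 3′ to 5′ actin probe sets, which rises as RNA degrades, was 1.49 to 4.38 in medulloblastoma, 1.73 to 2.78 in glioma and 1.98 to 6.21 in normal brain. Its highest values were those of normal brains Z2 (6.21), B2 (6.01) and C2 (4.95), while C5 had 3.45. Its part in the results was not tested. The median intensity per array was 18.8 to 27.8.

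**Figure D1:**
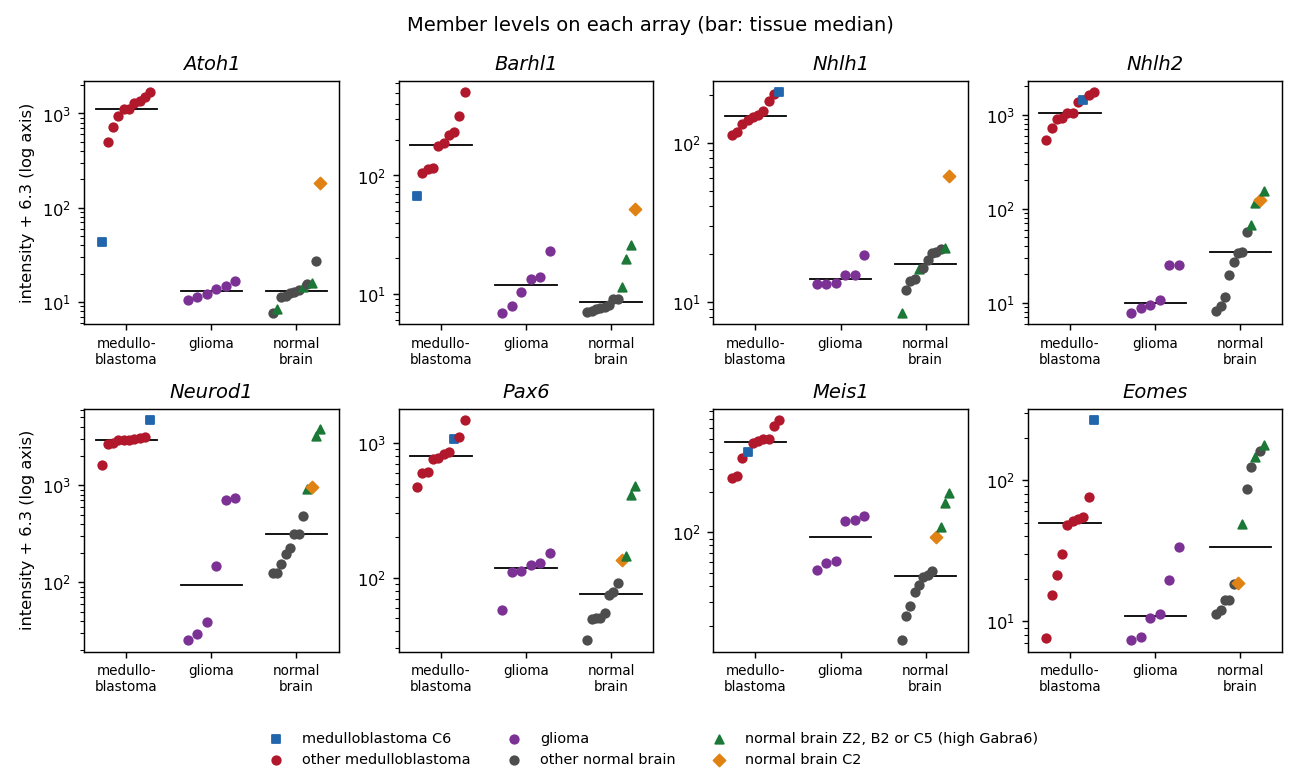
Intensity plus 6.3 of the brightest probe set of each gene (log axis, deposited intensity units) on every array, by tissue. Points are arrays in order of value, bars are medians, and the normal brains Z2, B2 and C5, normal brain C2 and medulloblastoma C6 are marked. The Atoh1 intensity, before 6.3 was added, ran from 493.3 to 1678.9 in 9 medulloblastomas and was 37.5 in C6, while the Neurod1 values of normal brains Z2 and C5 lay within the range of the medulloblastomas.

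The first comparison asked which of the 8 factors set medulloblastoma apart from normal brain. In medulloblastoma 7 of the 8 were higher and none was lower, with Eomes the exception. Of all 13926 genes tested, 32.3% were called higher and 32.1% lower, that is, with an adjusted p under 0.05 from limma with Benjamini-Hochberg adjustment over all genes. The median difference of the 8 genes was 3.20 on the log2 scale, against 0.01 over all genes. All 8 genes passed the filter on low values (mean log2 value above 3.88 over all arrays). Taken in single tissues, Barhl1 was below it in normal brain, and Atoh1, Barhl1, Nhlh1, Nhlh2 and Eomes were below it in glioma. These genes entered the comparisons through the tissues where they are brighter, and with no filter at all the count was again 7. With no detection calls, the dim values of Atoh1, Barhl1, Nhlh1 and Nhlh2 in normal brain and glioma cannot be told from background. All log2 differences here are of intensity plus 6.3 and adjusted for genotype, which understates the change of dim genes. In bulk tissue a lower share of a cell type and less RNA per cell cannot be told apart.

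Atoh1, the factor that specifies the precursors, ran from 37.5 to 1678.9 in the 10 medulloblastomas, with a median of 1111.3. In the 12 normal brains it ran from 1.4 to 176.2, with a median of 6.80. The ranges overlapped through 1 array on each side, medulloblastoma C6 at 37.5 and normal brain C2 at 176.2, and otherwise the lowest tumour (493.3) lay far above the highest normal brain (21.1). The log2 difference was 5.56 (SE 0.549, adjusted p = 2.59e-09, limma).

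Barhl1, the homeobox factor of the precursors, was 60.6 to 500.1 in medulloblastoma (median 176.0) and 0.7 to 45.4 in normal brain (median 2.25). Every tumour lay above every normal brain, and C6 was again the lowest tumour and C2 the highest normal brain. With the second probe set C6 (51.6) was also lowest, but the highest normal brain was C5 (20.5). On the log2 scale the difference was 3.91 (SE 0.352, adjusted p = 5.34e-10).

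Nhlh1 and Nhlh2, the factors of newly born neurons, separated the tissues without overlap. Nhlh1 ran from 105.0 to 201.6 in medulloblastoma (median 141.0) and from 2.2 to 55.4 in normal brain (median 11). The log2 difference was 3.18 (SE 0.227, adjusted p = 1.05e-11). Nhlh2 ran from 525.3 to 1732.0 in medulloblastoma (median 1037.8) and from 1.8 to 146.9 in normal brain (median 28). Here the log2 difference was 5.14 (SE 0.452, adjusted p = 3.83e-10). Nhlh1 was the most even of the 8 genes among the tumours, with a highest value 1.92 times the lowest.

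Neurod1, which acts as precursors differentiate, was 1602.7 to 4736.5 in medulloblastoma (median 2931.0) and 117.3 to 3830.9 in normal brain (median 307.0). It was bright in every tumour but overlapped with normal brain through the granule-rich samples described below. The log2 difference was 3.0 (SE 0.616, adjusted p = 0.000133). Labels carry the prefix YZ or YZ2, which they do not explain. Within the arrays of prefix YZ the difference of Neurod1 was 2.65 (adjusted p = 0.0957) and within YZ2 it was 3.18 (adjusted p = 0.00213), whereas the other 6 called genes passed within each prefix.

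Pax6 ran from 466.5 to 1482.0 in medulloblastoma (median 794.0) and from 27.9 to 474.5 in normal brain (median 69.9), overlapping by 1 normal brain above 1 tumour. Pax6 differed by 3.22 on the log2 scale (SE 0.317, adjusted p = 2.55e-09). Meis1, its partner, ran from 247.4 to 688.2 in medulloblastoma (median 468.0) and from 9.3 to 190.7 in normal brain (median 40.8), with no overlap and a log2 difference of 3.15 (SE 0.310, adjusted p = 2.52e-09). Non-overlap with every tumour above every normal brain thus held for 4 of the 8 genes, Barhl1, Nhlh1, Nhlh2 and Meis1, against 8.87% of all genes.

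Eomes, the unipolar brush cell factor, did not pass. It ran from 1.3 to 261.4 in medulloblastoma (median 43.3) and from 4.9 to 171.0 in normal brain (median 27.4), so that the 2 ranges largely coincided. The log2 difference was 0.18, with a 95% interval from -1.06 to 1.42 (adjusted p = 0.806), and its sign turned in several alternative fits (-0.12 without medulloblastoma C6). The interval leaves room for a change of more than 2-fold in either direction. Of 6 other unipolar brush cell genes, 3 were tested: Otx2 was higher in medulloblastoma (2.28), and Grp (-2.12) and Calb2 (-1.11) were lower.

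**Figure D2:**
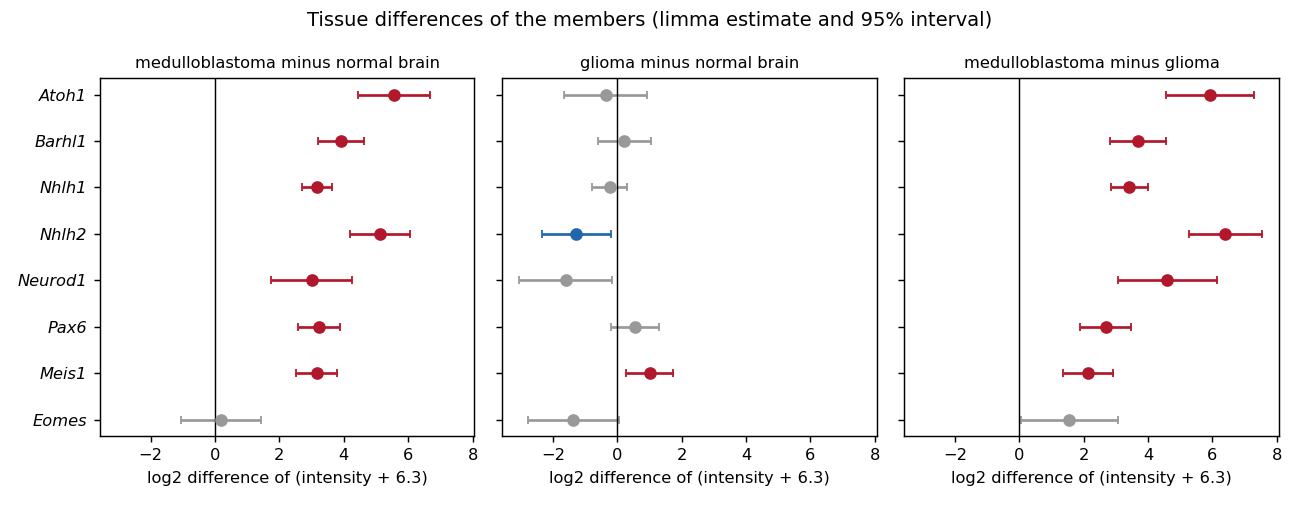
Log2 difference of each gene (intensity plus 6.3, adjusted for genotype) between the 3 pairs of tissues, with 95% intervals from limma. Red points (higher) and blue points (lower) passed an adjusted p under 0.05, and grey points did not. The 7 genes other than Eomes lay between 3.0 and 5.56 for medulloblastoma over normal brain, while for glioma over normal brain the passing values were -1.27 for Nhlh2 and 1.02 for Meis1.

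The normal brains rich in Gabra6 divided the 8 genes. Neurod1 was 3830.9 in Z2, 3232.4 in C5 and 904.4 in B2, or 131%, 110% and 30.9% of the medulloblastoma median, and only medulloblastoma C6 exceeded Z2 or C5. Pax6 was 474.5, 403.2 and 139.7 in that order, or 59.8% of the tumour median in Z2 and 50.8% in C5. Meis1 was 190.7, 158.8 and 103.9, or 40.7%, 33.9% and 22.2% of that median. These 3 genes are known to be kept in mature granule neurons, and all 3 were higher in Z2 and C5 than in any other normal brain.

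Atoh1, Barhl1, Nhlh1 and Nhlh2 were not. Atoh1 was 8.1 in Z2, 9.7 in C5 and 2.2 in B2, at most 0.873% of the medulloblastoma median and within the range of the Gabra6-poor normal brains. Nhlh1 was 15.5, 2.2 and 9.7 in the same arrays, and 5.5 to 55.4 in the other 9 normal brains. Nhlh2 took a place between, at 107.3, 146.9 and 60.4, or 10.3%, 14.2% and 5.82% of the tumour median and below the lowest tumour, 525.3. Barhl1 was 19.6, 13.3 and 5.2. Among the Gabra6-poor normal brains it was 45.4 in C2 and at most 2.8 in the other 8. The second Barhl1 probe set gave 14.7, 20.5 and 4.9 in Z2, C5 and B2, but also 17.7 in the Gabra6-poor B4. Since Z2, C5 and B2 were singled out by Gabra6 after values were seen, no test between them and the others was made. Without all 3, the same number of genes, 7, was called in medulloblastoma over normal brain.

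Normal brain C2, a Rictor-null sample, showed a different pattern. Its Gabra6 was 8.2, but it had the highest Atoh1 (176.2), Barhl1 (45.4) and Nhlh1 (55.4) of the 12 normal brains, or 15.9%, 25.8% and 39.2% of the tumour medians. For Barhl1 this rests on the brightest probe set, since on the second C2 (19.8) was just below C5 (20.5). Nhlh2 in C2 (118.8) was exceeded only by C5. Neurod1 (944.1), Pax6 (128.5) and Meis1 (86.6) in C2 were below those of Z2 and C5. All 3 were above those of the other 8 Gabra6-poor normal brains. The 6 proliferation genes on the array summed to 975.2 in C2, against 45.5 to 397.0 in the other normal brains and 2607.6 to 7860.9 in medulloblastoma. The part of dividing or tumour cells in these values was not tested. Leaving C2 out kept the count of 7.

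Eomes followed neither pattern among normal brains. It was high in the Gabra6-rich C5 (171.0) and Z2 (139.4), but also in A6 (155.3), C6 (117.5) and B6 (80.6), where Gabra6 was 8.2, 116.3 and 3.0. In the remaining 7 normal brains it ran from 4.9 to 42.5. Forebrain neuron genes summed to 2116.7 in A6, 1518.0 in C6 and 1964.4 in B6. In the other Gabra6-poor normal brains, where Eomes was low, they summed to 1237.5 to 3248.0.

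**Figure D3:**
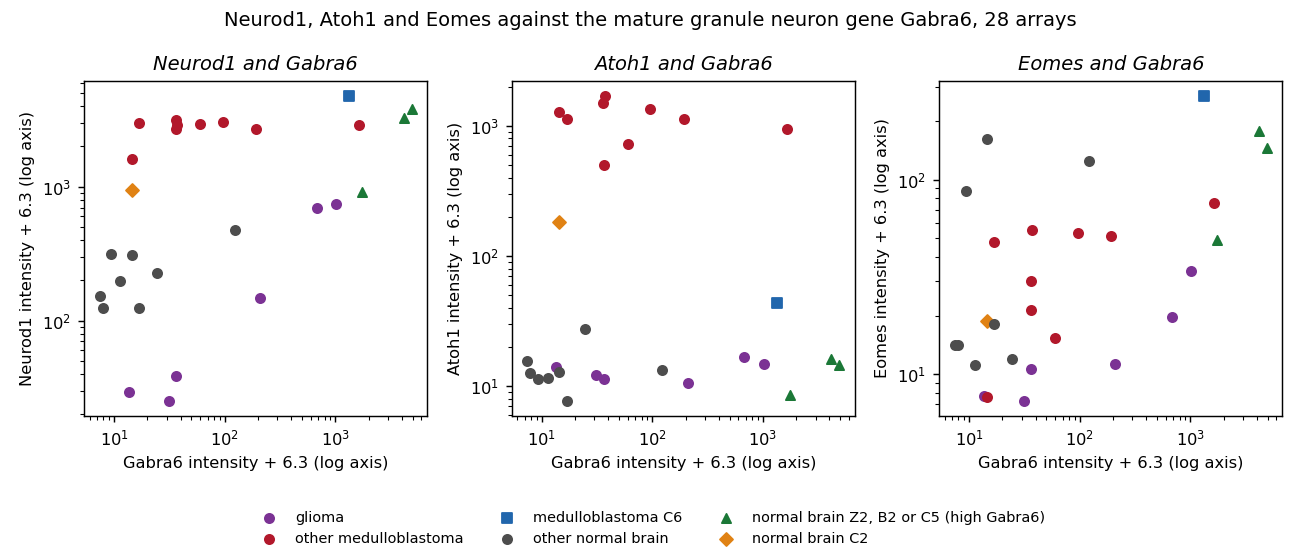
Intensity plus 6.3 of Neurod1, Atoh1 and Eomes against that of Gabra6 (log axes, deposited intensity units), 1 point for each of the 28 arrays, by tissue. Before 6.3 was added, normal brains Z2, C5 and B2, at Gabra6 of 4918.3, 4153.4 and 1740.4, had Neurod1 of 3830.9, 3232.4 and 904.4 but Atoh1 of 8.1, 9.7 and 2.2.

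The second comparison asked whether the factors marked medulloblastoma or tumours of these mice in general. Between glioma and normal brain, Meis1 was the only one of the 8 genes called higher, against 28.5% of all genes, and Nhlh2 the only one called lower, against 25.6%. The median over the 8 genes was -0.30 on the log2 scale and over all genes 0.05. The ranges of the 2 tissues overlapped for every one of the 8 genes. Over all genes, 9.49% had each glioma above each normal brain and 9.33% each glioma below. Overlap was thus the common case and did not set the 8 genes apart.

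Atoh1 was 4.2 to 10.3 in the 6 gliomas (median 6.75), and Barhl1 0.6 to 16.5 (median 5.55). Nhlh1 was 6.7 to 13.3 (median 7.60), and Eomes 1.0 to 27.4 (median 4.65). These values lay near the lower end of the array's scale, and their log2 differences from normal brain did not pass (Atoh1 -0.36, Barhl1 0.22, Nhlh1 -0.24 and Eomes -1.36, with adjusted p from 0.0978 to 0.673). With no genotype term Eomes passed as lower in glioma (-1.66, adjusted p = 0.0356). Nhlh2 was 1.5 to 19.2 in glioma, with a log2 difference of -1.27 (SE 0.517, adjusted p = 0.0407). That call was lost within both prefixes, without the 3 Gabra6-rich normal brains (adjusted p = 0.0961) and on leaving out any of 8 arrays. These were normal brains C2 (adjusted p = 0.0544), B4 (0.0546), B7 (0.0719) and B2 (0.0749), and gliomas B3 (0.0699), A4 (0.0746), B1 (0.0795) and C3 (0.147).

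Meis1 was 46.3 to 125.3 in glioma (median 85.6), a log2 difference of 1.02 (SE 0.355, adjusted p = 0.0177). It did not pass within either prefix (0.92 with adjusted p = 0.226 in YZ, 0.84 with adjusted p = 0.116 in YZ2), nor without glioma B2 (0.87, adjusted p = 0.0509). With no genotype term Meis1 did not pass either (0.66, adjusted p = 0.162). Pax6, a factor also of glial progenitors, was 50.9 to 146.9 (median 112.0), a log2 difference of 0.54 (adjusted p = 0.215). Without the Gabra6-rich normal brains it was 0.86 and passed (adjusted p = 0.00763), as it did without C5 alone (0.70, adjusted p = 0.0417) and within prefix YZ2 (1.11, adjusted p = 0.033).

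Neurod1 was uneven among gliomas. Values of 735.0, 693.8 and 140.7 were found in B7, B2 and A4, the gliomas with Gabra6 of 1014.0, 674.9 and 203.5, and 18.9, 22.9 and 32.5 in B1, B3 and C3, where Gabra6 was 25, 7.3 and 30.2. The mature granule neuron list summed to 2855.1, 2040.7 and 560.7 in B7, B2 and A4 and to 208.8 to 284.6 in the other 3. The part of such cells in the glioma values was not tested. Over all 6 gliomas the log2 difference of Neurod1 from normal brain was -1.60 (SE 0.704, adjusted p = 0.0569). Without B7, B2 and A4, an alternative chosen after seeing the data, it was -3.49 (adjusted p = 0.000112). It also passed on leaving out glioma B7 (-2.13, adjusted p = 0.0107) or B2 (-2.11, adjusted p = 0.0117), or normal brain B1 (adjusted p = 0.0391), C3 (0.0407) or C1 (0.0457). With no genotype term Neurod1 passed as well (-1.95, adjusted p = 0.0216).

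Between the tumour kinds, 7 of the 8 genes were higher in medulloblastoma than in glioma and none was lower, where 13.7% of all genes were called higher and 14.8% lower. The median over the 8 genes was 3.56 on the log2 scale. For the same 7 genes every medulloblastoma lay above every glioma, which held for 2.63% of all genes. The log2 difference was 6.4 for Nhlh2 (SE 0.548, adjusted p = 2.51e-09), 5.92 for Atoh1 (SE 0.665, adjusted p = 1.78e-07) and 4.60 for Neurod1 (SE 0.747, adjusted p = 3.55e-05). The glioma values of Nhlh2 and Atoh1 are at the dim end of the arrays, so the sizes depend on the settings, from 4.79 to 7.41 for Nhlh2 and from 4.46 to 6.67 for Atoh1 over all alternatives. Those of Barhl1 (3.70), Nhlh1 (3.42), Pax6 (2.68) and Meis1 (2.14) also passed, with adjusted p of at most 9.86e-05. That of Eomes was 1.55 (95% interval 0.04 to 3.05, adjusted p = 0.117). These comparisons share samples with those against normal brain and are not independent of them.

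By median intensity all 8 genes were highest in medulloblastoma, though for Eomes no pair of tissues passed the test. Normal brain came next and glioma last for Neurod1 and Eomes, and the reverse held for Pax6 and Meis1. Among Neurod1, Eomes, Pax6 and Meis1, the test separated glioma from normal brain for Meis1 alone, and that call was lost in several alternatives. For Atoh1, Barhl1, Nhlh1 and Nhlh2 no order is read from the dim values of those tissues.

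Among single medulloblastomas C6, a Rictor-null tumour, stood apart in Atoh1. At 37.5 it was 0.0337 of the median of the 10 tumours, and the other 9 averaged 1127.8 ± 373 (SD). Barhl1 was also lowest in C6, at 60.6 or 0.345 of the median. The other genes were not lowest there. Neurod1 (4736.5), Nhlh1 (201.6) and Eomes (261.4) were the highest of the 10, at 1.62, 1.43 and 6.04 times the median. Nhlh2 (1409.6) and Pax6 (1071.1) ranked 3 and Meis1 (389.0) ranked 7 of the 10.

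C6 shared high granule and Purkinje cell transcripts with B6, but not its Atoh1 value. The mature granule neuron list summed to 4531.5 in C6 and 4591.5 in B6, against 380.1 to 1296.9 in the other 8. The Purkinje cell list (6 of 7 genes on the array) summed to 8259.6 and 7405.1, against 120.7 to 2036.0. Atoh1 was 933.3 in B6. Mki67 was 684.2 in C6, inside the range of the other tumours, 478.8 to 2007.3. Without C6 the log2 difference of Atoh1 between medulloblastoma and normal brain was 6.07, and 7 genes were called as before.

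Tumour A3, with p53 loss only, had the lowest Neurod1 (1602.7), Meis1 (247.4) and Eomes (1.3) of the 10, together with the lowest Mki67 (478.8) and Gabra6 (8.1). Its Atoh1 (1269.2) and Pax6 (1108.1) were above the medians. Tumour A6 paired the lowest Atoh1 after C6 (493.3) with the highest Barhl1 (500.1) and Meis1 (688.2). The Barhl1 peak was not seen on the second probe set, where A6 had 125.1 and A3 was highest at 255.4. Tumour C4 had the highest Pax6 (1482.0) and an Eomes of 9.0. Eomes varied most among the tumours, with the highest value 201 times the lowest, against 44.8 times for Atoh1, 8.25 for Barhl1 and 1.92 to 3.30 for the other 5.

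**Figure D4:**
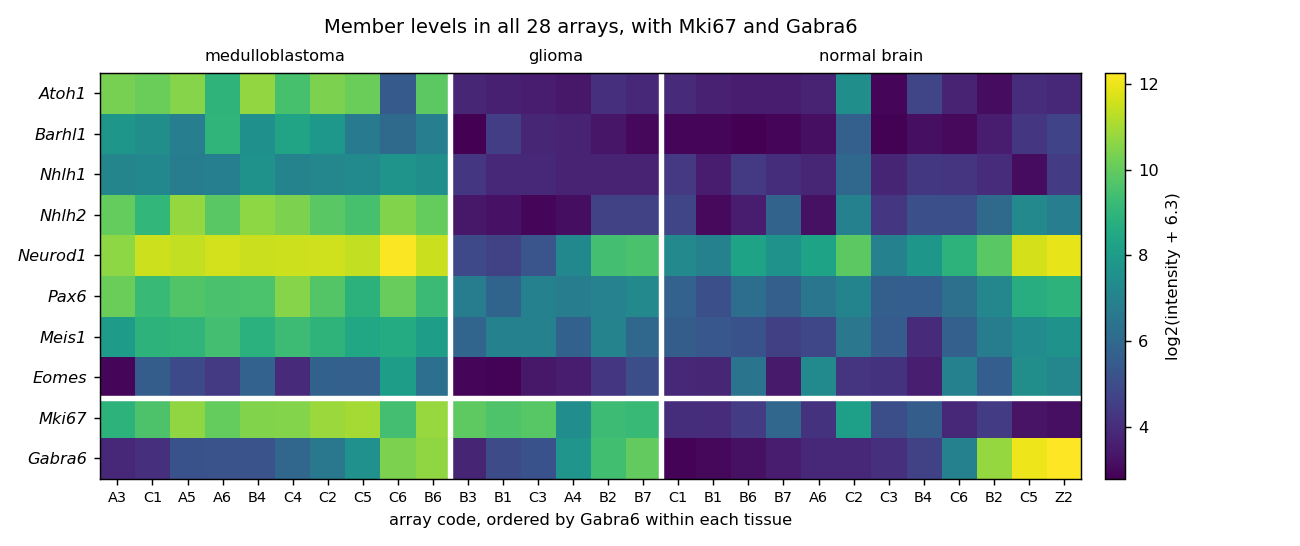
Colour shows log2 of intensity plus 6.3 for the 8 genes, and for Mki67 and Gabra6 below them, on each of the 28 arrays, ordered by Gabra6 within each tissue. Colours compare arrays within a row. The Atoh1 row is high in 9 medulloblastomas and low in C6, and the Neurod1 and Pax6 rows are high in normal brains Z2 and C5 as well.

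Whether the 8 genes varied together among the 10 medulloblastomas was tested for 28 pairs and for each gene with Mki67 and Gabra6, 44 relations in all. None passed after Benjamini-Hochberg adjustment (lowest adjusted p = 0.204, permutation test with 100000 resamples). Nhlh1 and Eomes had r = 0.724 (permutation p = 0.0162, adjusted p = 0.242) and rho = 0.83 (permutation p = 0.00463, adjusted p = 0.204), and r was 0.567 without the 2 arrays farthest out, B4 and C6. Eomes and Gabra6 had r = 0.747 (permutation p = 0.0106, adjusted p = 0.242) and rho = 0.745 (permutation p = 0.0179, adjusted p = 0.393), with r = 0.492 without A3 and C6. Some relations rested on C6 and 1 other tumour. Neurod1 and Eomes had r = 0.821 (permutation p = 0.0165, adjusted p = 0.242) but rho = 0.382 (permutation p = 0.28, adjusted p = 0.874), and r was -0.22 without A3 and C6. Atoh1 and Neurod1 had r = -0.709 (permutation p = 0.0911, adjusted p = 0.355) and rho = -0.661 (permutation p = 0.0433, adjusted p = 0.396), and r was -0.174 without A6 and C6.

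Rictor genotype was compared within tissues. Between 5 Rictor-null medulloblastomas and 3 with p53 loss only, none of the 8 genes passed (adjusted p 0.982 to 0.997, limma), where 0.00718% of all genes (1 gene) passed and 605 had an unadjusted p under 0.05. Atoh1 was 1334.5, 37.5, 1110.8, 717.4 and 1111.8 in Rictor-null tumours C2, C6, C1, C4 and C5, and 1269.2, 1501.3 and 493.3 in A3, A5 and A6. The ranges overlapped, and the log2 difference was -0.83 (95% interval -2.91 to 1.25), or 0.09 without C6. Eomes was 47.0, 261.4, 41.5, 9.0 and 45.1 in the same Rictor-null tumours and 1.3, 23.7 and 15.0 in those with p53 loss only. Tumour C4 overlapped with the latter, and the log2 difference was 1.72 (95% interval 0.09 to 3.35, unadjusted p = 0.0402, adjusted p = 0.982). The intervals of the other 6 genes all included 0, from Barhl1 (-1.80 to 0.61) to Neurod1 (-0.12 to 0.98), so that changes within these intervals remain possible.

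Between Rictor-null and the 2 heterozygous medulloblastomas, B4 and B6, none of the 8 genes passed (adjusted p = 1.0 for each), against 0.00718% of all genes, with 197 at an unadjusted p under 0.05. The difference of Atoh1 was -1.18 (95% interval -3.56 to 1.20), or -0.26 without C6. In normal brain, Rictor-null against heterozygous, none passed (adjusted p = 1.0 for each), nor did any other gene (0.0%), with 441 at an unadjusted p under 0.05. All 8 differences were above 0, from 0.20 for Nhlh1 to 0.97 for Nhlh2 and Meis1, where the Rictor-null group held C2 and the Gabra6-rich C5, and the heterozygous group the Gabra6-rich B2. Atoh1 was 9.2, 176.2, 7.0, 1.4 and 9.7 in normal brains C1, C2, C6, C3 and C5 and 5.0, 5.3, 6.3, 2.2 and 21.1 in B6, B7, B1, B2 and B4. The groups overlapped, and its difference was 0.72, or -0.05 without C2. The test of whether the Rictor effect differed between the 2 tissues passed for none of the 8 (0.0% of all genes, 257 with an unadjusted p under 0.05). For Atoh1 it was -1.90 (SE 1.30).

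Genes of the surrounding pathway were read from lists. Of 13 genes of SHH signalling and its targets, the pathway that drives division of the precursors, 12 were tested. In medulloblastoma 10 were higher than in normal brain, against 32.3% of all genes, with a median difference of 2.47. Mycn, the transcription factor induced by SHH, was 1177.9 to 4134.2 in medulloblastoma and 27.1 to 379.5 in normal brain. Its log2 difference was 4.36 (SE 0.286, adjusted p = 2.96e-12). Sfrp1, a secreted target, differed by 3.78 and Gli2, a nuclear effector, by 3.51. Ptch1, the receptor and classic target, gave 0.32 and did not pass, nor did Gli3. Against glioma 9 of the 12 were higher, where 13.7% of all genes were.

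Of 15 other regulators of the granule lineage, 12 were tested. In medulloblastoma 11 were higher (median 1.93), against 32.3% of all genes, with Lhx2 the exception. Within prefix YZ alone 5 of them passed. Insm1, a zinc finger factor of dividing neuronal precursors, was 765.4 to 2444.1 in medulloblastoma and 4.8 to 287.0 in normal brain. Its log2 difference was 4.81 (SE 0.410, adjusted p = 2.24e-10). Zic5 differed by 3.08 and Nfib by 2.55.

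Of 17 proneural and homeobox relatives of the 8 genes, 9 were tested, of which 3 were higher and 3 lower (median -0.14), near the shares of all genes (32.3% and 32.1%). Barhl2, the paralogue of Barhl1, was 28.9 to 153.4 in medulloblastoma and 0.7 to 113.5 in normal brain (log2 difference 2.88, SE 0.422). Meis2, the paralogue of Meis1, was lower, at 0.3 to 311.2 against 14.4 to 1596.1 (log2 difference -4.85, SE 0.619). Tbr1, a forebrain relative of Eomes, was lower as well (-3.15).

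Dimer partners and inhibitors were mixed. Of 14, 13 were tested, of which 5 were higher and 3 lower in medulloblastoma (median 0.38), not far from the shares of all genes (32.3% and 32.1%). The E proteins, which pair with Atoh1, Neurod1 and the Nhlh factors, were all higher: Tcf3 by 1.95 (139.0 to 464.7 against 47.2 to 112.2), and, named after their values were seen, Tcf12 by 1.40 and Tcf4 by 0.78. Hey1, a Notch-induced repressor, was higher by 1.43. Id4, which sequesters E proteins, was 15.9 to 509.2 in medulloblastoma and 563.7 to 1323.0 in normal brain. Id4 differed by -3.24 on the log2 scale (SE 0.465, adjusted p = 1.05e-06).

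Genes of later stages split, where 32.3% of all genes were higher in medulloblastoma than in normal brain and 32.1% lower. Of 10 genes of differentiating neurons, 3 were higher and 5 lower in medulloblastoma, among them Dcx, a microtubule protein of migrating neurons, at 3.09, the guidance receptor Sema6a at 1.28 and the adhesion molecule Nrcam at -1.29. Of 9 tested mature granule neuron genes, 2 were higher and 4 lower, with Gabrd, a receptor subunit, at -3.01, Slc17a7, a vesicular glutamate transporter, at -2.20 and Fat2, a cadherin of granule cells, at 2.06. Fat2 was 1.0 to 1024.4 in normal brain. Gabrd was at least 77.7 and Slc17a7 at least 20.1 in every normal brain, so these lower genes were not limited to granule-rich samples. Cbln1 was the other higher gene (1.59), and Gabra6 (1.425), Cbln3 (1.145) and Grin2c (-0.59) did not pass. The 6 proliferation genes tested were all higher (median 5.27), led by Mki67 (5.63), Bub1 (5.32) and Rrm2 (5.28), and 5 of 6 forebrain neuron genes were lower (median -3.23), led by Lamp5 (-4.42), Ppp1r1b (-3.41) and Drd1 (-3.31). Of 6 genes of Purkinje cells 4 were lower, led by Slc32a1 (-4.28), Gad1 (-3.98) and Pcp4 (-2.96). Pcp2 (0.99) and Car8 (-0.24) did not pass. Gad1 was at least 2389.2 in every normal brain, whereas Pcp2 ran from 2.5 to 5657.2, so the lower genes were not limited to Purkinje-rich samples. Of 6 astrocyte genes 5 were lower, led by Gjb6 (-3.83), Fgfr3 (-2.74) and Aldh1l1 (-1.83). Of 6 oligodendrocyte lineage genes 3 were lower, with Mbp at -3.03 and Mog at -2.30, and Pdgfra was higher (1.63). The gliomas, by comparison, had 6 proliferation genes higher than normal brain with a median of 4.19, where 28.5% of all genes were higher.

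By the rule for likeness, the 3 genes with the highest Pearson correlation of log2 values to each of the 8 were listed over the 28 arrays, as a description. The arrays share the 3 tissues in which 7 of these genes differ. Atoh1 was most like Hsd11b2 (r = 0.981), Tead2 (0.969) and Tbata (0.962). Nhlh1 was most like Cdk6 (0.950), Rnd3 (0.947) and Insm1 (0.943), and Nhlh2 most like Mab21l1 (0.963), Zic4 (0.961) and Mgl2 (0.950). Neurod1 was nearest to Zic1 (0.938), Uncx (0.901) and Barhl2 (0.897), and Pax6 to Cxxc5 (0.940), Barhl2 (0.936) and Boc (0.931), the last an SHH co-receptor. For Meis1 the list held 2 of the 8 genes themselves, Pax6 (0.914) and Barhl1 (0.902), after Tpcn1 (0.918). Barhl1 was nearest to Cep78 (0.934), Gjc1 (0.928) and Znrf2 (0.924). Eomes had the lowest likeness of the 8, with Dipk2a (0.776), Dgkd (0.775) and Mmp24 (0.732).

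Over the 10 medulloblastomas alone the nearest genes were others, apart from Hsd11b2 for Atoh1 (0.936), which was followed by Efs (0.931) and Man1c1 (0.928). These values are a description over 10 arrays. The SD of log2 Atoh1 was 1.547 over all 10 and 0.549 without C6. Likeness to Atoh1 may thus rest largely on that tumour, and it was not computed without C6. Barhl1 was nearest to Ppp1r18 (0.912), Pttg1ip (0.912) and Zc3h12c (0.909), and Nhlh1 to Zswim3 (0.957), Smarcc2 (0.922) and Mamld1 (0.905). Nhlh2 was nearest to Bicd2 (0.976), Mbip (0.942) and Klhl28 (0.931), and Neurod1 to Dnm1l (0.956), Gjd2 (0.948) and Hdgfl3 (0.941). For Pax6 they were Gadd45a (0.903), Sema4d (0.889) and Stambp (0.885), for Meis1 Insig1 (0.888), Tubb2b (0.877) and Oga (0.874), and for Eomes Sacm1l (0.971), Frrs1l (0.945) and Radil (0.918).

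The further probe sets of Barhl1, Neurod1, Pax6, Meis1 and Eomes gave the same reading of medulloblastoma against normal brain. The second probe set gave 3.06 for Barhl1, 3.22 for Neurod1, 2.56 for Pax6 and 2.66 for Meis1, all passing, and 0.19 for Eomes, which did not pass. The dimmer probe sets of Pax6 (1.13, 0.56 and 0.76) and Meis1 (0.54) also passed and differed by less. In medulloblastoma against glioma, 1 dim probe set of Meis1 (0.247, adjusted p = 0.484, limma) and 1 of Pax6 (0.482, adjusted p = 0.0993) did not pass. Atoh1, Nhlh1 and Nhlh2 had 1 probe set each and no such check.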

How the data were processed

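Gene expression of 10 medulloblastomas, 6 gliomas and 12 normal brains was read from 1 table of intensity values. The deposited intensities are linear, 1 per probe set and array, and were made with MAS5 and GCOS, per the submitters' processing notes (versions not given in the sources used here). Each array's mean, trimmed by 2% at each end, came to 100.0, so the arrays share 1 scale. The series' design text counts 22, 6 and 24 such tissues. Samples other than the 28 were not analysed here. Tumours were snap frozen and RNA was isolated with TRIzol and a spin column, per the labels' protocols. No detection calls were used, and precision is set by how many arrays each group has. Of 45101 probe sets, 34945 had 1 gene symbol, 932 several and 9224 none (64 controls among them, which were left out), per the platform annotation.

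From these values log2(intensity + 6.3) was computed, 6.3 being the 25th percentile, with the brightest probe set per gene and a filter at the 30th percentile of means. Fits used lmFit and eBayes with a trend in limma 3.58.1 (R 4.3.3). Tissues were compared over 28 arrays with genotype as a term, in which the wild-type Z2 has a term of its own and adds nothing to the differences. Rictor genotypes were compared within the 10 medulloblastomas and within the 12 normal brains, and the difference of the Rictor effects over 10 group means. Tests were two-sided with Benjamini-Hochberg adjustment over all genes, and the fits were tested on simulated data. Tables and figures were made in Python 3.11.15 (pandas 2.3.3 with numpy 2.4.6, and matplotlib 3.10.9). Alternatives were other pseudocounts, filters, normalization, probe sets and covariates, the label prefix, and arrays left out. All 8 genes are named throughout, with the 3 most alike genes of each, the 3 largest called changes of each list, and Gabra6 and Mki67. The 8 genes and the lists were chosen with earlier results of these data known.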

Additional observations from a re-analysis of the deposited data

Results flagged for a closer look

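Among 48 groups of 4 to 10 arrays (8 genes by tissue and genotype), the highest or lowest array stood far from its neighbours 7 times by Dixon's test, which chance does in about 1 group in 20. Atoh1 in medulloblastoma C6, at 37.5, stood apart both from the other 9 medulloblastomas and from the other 4 Rictor-null ones. Neurod1 was far above the other Rictor-null medulloblastomas in the same tumour, at 4736.5, and far below the other medulloblastomas in A3, at 1602.7. Atoh1 in normal brain C2, at 176.2, stood apart from the other 4 Rictor-null normal brains. Among the 6 gliomas, Nhlh1 was far above the others in B3, at 13.3, a value near the dim end of the arrays, and Pax6 far below them in B1, at 50.9.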

How the results depend on the processing

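The counts of called genes stayed within 1.5 times the main count under most alternatives, among them both filters, quantile normalization and every array left out in turn for medulloblastoma against normal brain and against glioma. With the second brightest probe set, which 5 of the 8 genes have, 4 were called in each of these 2 comparisons. For glioma against normal brain the count of 2 became 1 with a pseudocount of 32, with the label prefix as a term, within prefix YZ2, without normal brain C2 and with the second probe set, 0 within prefix YZ, and 1 to 3 on leaving out arrays in turn. With no genotype term Meis1 was no longer called in glioma against normal brain, while Neurod1 and Eomes were called lower. The cause of these changes was not tested. The labels do not say whether a code shared by 2 tissues ties the samples, and same-coded arrays did not all deviate together (11 pairs, r from -0.122 to 0.253, 5 over 0.1, 4 of them the pairs of Rictor-null medulloblastomas with normal brains). With these codes as a replicate block, the calls numbered 7 in medulloblastoma against normal brain, 0 in glioma against normal brain and 5 in medulloblastoma against glioma, with Pax6 (adjusted p = 0.0602) and Meis1 (0.0587) not passing in the last and Nhlh2 (0.253) and Meis1 (0.0631) not in the glioma comparison. Atoh1 in glioma against normal brain was 0.46.

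Differences changed sign only where they had not passed. Eomes in medulloblastoma against normal brain was -0.36 within prefix YZ, -0.12 without C6, -0.36 without C6 and B6 and -0.017 with no genotype term, and -0.12 to 0.71 leaving out single arrays. In glioma against normal brain, prefix YZ gave 0.013 for Atoh1 and 0.12 for Nhlh1, and Barhl1 was -0.23 within YZ2, -0.026 with its second probe set and -0.004 to 0.38 leaving out arrays. In Rictor-null against p53-null-only medulloblastoma, prefix YZ gave 0.16 for Atoh1, -0.013 for Neurod1 and -0.31 for Meis1, YZ2 gave 0.12 for Nhlh2, and Atoh1 without C6 was 0.089. Leaving out arrays gave -1.32 to 0.089 for Atoh1, -0.31 to 0.10 for Pax6 and -0.35 to 0.38 for Meis1. Against heterozygous medulloblastoma, Barhl1 was -0.14 with the prefix term, -0.23 within YZ2 and -0.14 with the second probe set, and Eomes 0.13 with the prefix term and 0.89 within YZ2. Leaving out arrays gave -0.27 to 0.46 for Barhl1, -0.002 to 0.80 for Meis1 and -0.78 to 0.26 for Eomes. In Rictor-null against heterozygous normal brain, Atoh1 was -0.37 within YZ and -0.053 without C2, and Nhlh1 -0.54 and -0.22. Leaving out arrays gave -0.053 to 1.09 and -0.22 to 0.50. For the difference of Rictor effects it gave -1.18 to 0.002 for Neurod1 and -0.78 to 0.025 for Pax6.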
